A study of Drosophila melanogaster with 12 samples.

Results

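The wing discs of flies carrying 1 of 2 alleles of the same gene, *ash2*, were compared with each other. The members of the comparison are 8 of the 12 arrays of the series, 4 whose titles name ash2-I1 and 4 whose titles name ash2-112411. The ash2-I1 discs came from larvae of genotype w1118;+;ash2-I1 and the ash2-112411 discs from w1118;+;ash2-112411, in both cases larvae of the third instar staged with bromophenol blue, without the Tb marker of the balancer, hence without the balancer chromosome. By the methods, chromosomes X, Y and 2 of both stocks were taken from the isogenic w1118;+;+ DrosDel line. Each mutant was hybridized against 1 pool of RNA from discs of that line, so all groups share the w1118 mutation and both alleles share the reference. Replacement of the third chromosome, which carries *ash2*, is not stated in the methods. The other 4 arrays, of ash1-22/ash1-22-F2A discs on the same w1118 background, entered the fit only to share the spread of each probe.

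ASH2 is a subunit of the protein complexes that methylate lysine 4 of histone H3, a mark found at the start of active genes. *ash2* belongs to the trithorax group, whose products keep developmental genes on and act against the Polycomb group, which keeps them off. The wing disc is the larval epithelium that forms the adult wing and the notum. The study describes ash2-I1 as lethal around the end of larval life and ash2-112411 as weaker, with few adults. It also describes ash2-I1 discs as abnormal in shape and much reduced in size, and ash2-112411 discs as less affected. The comparison therefore asks which genes separate 2 alleles of different strength. The discs were whole, so a change in a gene within cells and a change in the share of cells that express it cannot be told apart.

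Each value is a log2 ratio, mutant over pool. RNA was extracted 2 times per allele and hybridized to 2 arrays per extraction, with the dyes Cy3 and Cy5 exchanged between them. Values of both arrays were averaged, so n is 2 extractions per allele, and errors are SE from limma. The arrays of ash2-I1 had 7542 to 8007 measured spots and those of ash2-112411 had 10441 to 11179. The ratios spread less in ash2-I1, with a median absolute deviation per array of 0.19 to 0.26, than in ash2-112411, with 0.27 to 0.31. After every array was turned to mutant over pool, both dye orientations of one RNA had correlations over all shared spots of 0.66 to 0.71 in ash2-I1. In ash2-112411 they correlated at 0.78 in extraction 2 and only at 0.37 in extraction 1, the lowest of these pairs. Within each allele, arrays of the same dye from different extractions correlated more closely than dye-swapped arrays of one RNA. These correlations were 0.78 and 0.92 in ash2-I1 and 0.84 and 0.94 in ash2-112411. Where an extraction had both arrays, the averaging leaves the spread between the dyes out of the SE. Where it had 1, its mean rests on 1 dye, so a dye effect can enter the difference between the alleles. A probe was tested where both extractions of both alleles had a value, which left 6343 genes, 3275 of them measured on all 8 arrays. Another 3812 probes were measured in both extractions of ash2-112411 only and 579 in those of ash2-I1 only, and these have no difference here.

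*ash2* itself, on chromosome arm 3R, had low log2 ratios in both mutants. They were −2.21, −2.0, −1.60 and −1.21 on the 4 ash2-I1 arrays and −2.07, −1.47 and −1.48 on the 3 ash2-112411 arrays that measured it. The 2 sets of arrays overlapped. The allele means of −1.75 ± 0.16 in ash2-I1 and −1.62 ± 0.16 in ash2-112411 differed by −0.13 ± 0.22 (adjusted p from limma 0.68). As deposited, the transcript measured by this probe thus did not separate the alleles beyond its error. After all arrays were scaled to one spread, as described below, the means were −1.73 in ash2-I1 and −1.22 in ash2-112411. That difference was −0.51 (adjusted p from limma 0.078) and was not called, so its size depended on the scale. *ash1* had no probe under its symbol and is not analysed here.

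A gene was called different between the alleles where its adjusted p was under 0.05 and the alleles lay over 1.5-fold apart, a difference of 0.585 in log2 ratio. By this rule 894 of 6343 genes differed, which is 14.1%. The adjusted p alone was under 0.05 for 2111 genes (33.3%) and the unadjusted p for 2908 (45.8%). Of the 894, 500 (7.88%) were higher in ash2-I1 than in ash2-112411 and 394 (6.21%) were lower. Past 2.0-fold there were 213 genes (3.36%). Leaving out extraction 2 of ash2-112411 took the count from 894 to 538, with 278 higher and 260 lower in ash2-I1. The authors scaled each set of 4 arrays on its own, so the arrays were also brought to a common scale, each divided by its own median absolute deviation. On that scale 611 genes differed, 322 higher (5.08%) and 289 lower (4.56%) in ash2-I1, and 562 genes (8.86%) were called on both scales with the same sign, 298 higher (4.7%) and 264 lower (4.16%) in ash2-I1.

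The balance of the directions depended on the centre of the arrays. The median difference over all genes tested was 0.10 as deposited, 0.07 on the common scale and −0.05 after each array was centred on its own median. With centred arrays 239 genes were higher (3.77%) and 624 lower (9.84%) in ash2-I1, against 500 and 394 as deposited. Called as deposited, on the common scale and centred were 484 genes (7.63%), 220 higher (3.47%) and 264 lower (4.16%) in ash2-I1. Counts of list members below are of calls as deposited, followed by those on both scales where these differ, and list medians are given relative to the median of all genes. Percents of list members called as deposited compare with 14.1% of all genes. The lists were chosen with earlier results of these data known and no set test was run. A share above that of all genes therefore only describes the list.

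The genes called on both scales lay in different places relative to the pool. In 309 of the 562 the allele means were on opposite sides of the pool, 179 of them higher in ash2-I1. In 178 both alleles were on the same side with ash2-I1 farther out, and in 75 ash2-112411 was farther out. Means more than 1.5-fold from the pool in opposite directions were found for 5 genes (0.0788% of those tested). On all 8 arrays 3275 genes were measured, and in 841 of these (25.7%) the 4 arrays of an allele did not overlap the 4 of the other. Of the same 3275 genes 526 (16.1%) were called.

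**Figure D1:**
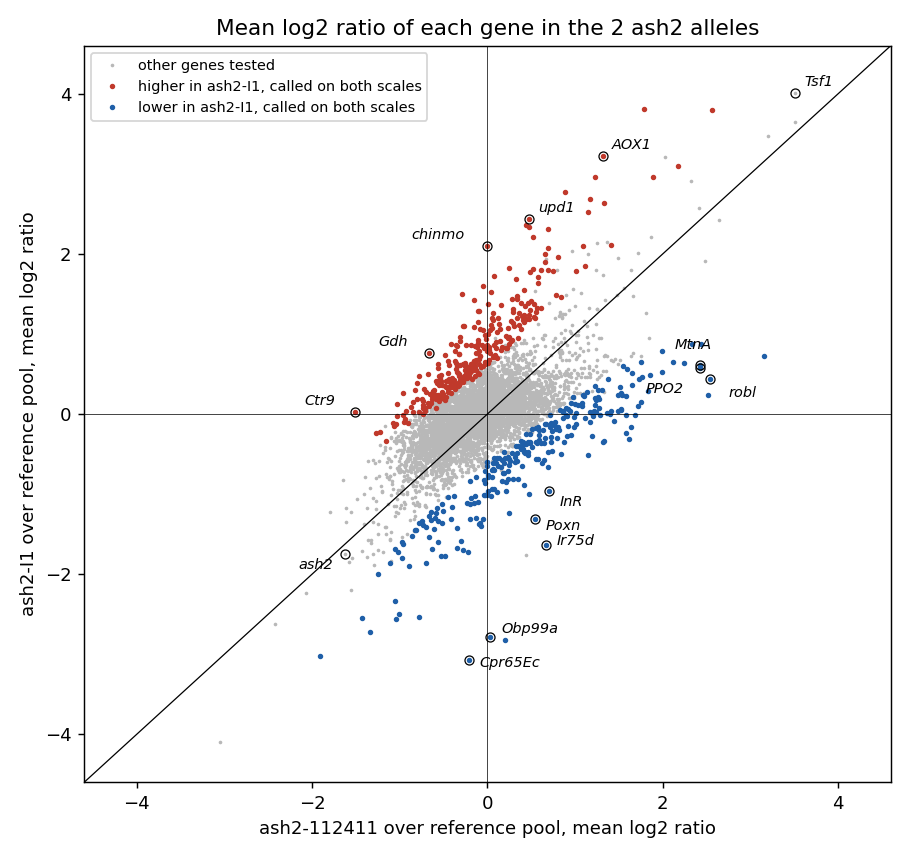
Mean log2 ratio over the reference pool of 6343 genes in ash2-112411 (horizontal axis) and ash2-I1 (vertical axis), each the mean of 2 extractions, with the 298 genes higher and the 264 genes lower in ash2-I1 that were called on both scales in colour. The line marks equal values: *ash2* lies close to it at −1.75 and −1.62, while *InR* and *Gdh* lie in opposite quadrants.

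The 10 largest differences in favour of ash2-I1, among genes called on both scales and measured on all 8 arrays, ran from 1.38 to 1.91 in log2 ratio. *AOX1*, an aldehyde oxidase gene on 3R, was at 3.23, 4.23, 3.27 and 2.17 on the ash2-I1 arrays and at 1.34, 1.56, 1.20 and 1.18 on the ash2-112411 arrays. Every ash2-I1 value was thus above every ash2-112411 value, both alleles were above the pool, and the difference was 1.91 ± 0.30 (3.76-fold, adjusted p 0.0072). *Nt5b*, a 5′-nucleotidase gene on X, showed the same order, with 1.63 to 3.11 in ash2-I1 and 0.45 to 0.85 in ash2-112411 (difference 1.63 ± 0.18). *JhI-26*, which is induced by juvenile hormone, had means of 2.96 in ash2-I1 and 1.22 in ash2-112411, but its lowest ash2-I1 array (1.64) lay below its highest ash2-112411 array (1.95).

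*Ctr9*, a subunit of the Paf1 complex that travels with RNA polymerase II and is needed for methylation of histone H3 in yeast, had another pattern. Its ash2-I1 values were 0.34, 0.06, −0.11 and −0.19 and its ash2-112411 values −1.74, −1.89, −1.14 and −1.29. It was therefore near the pool in ash2-I1 and low on all 4 arrays of ash2-112411, and the difference was 1.54 ± 0.14 (adjusted p 0.0022). *wun2*, a lipid phosphate phosphatase gene, was near the pool in ash2-112411 (0.07 ± 0.18) and high in ash2-I1 (1.73 ± 0.18). The 10 also held *Gdh* and 4 genes known by number, *CG15279* (1.86), *CG18596* (1.39), *CG2909* (1.38) and *CG46339* (1.38). *CG15279* was not called without either extraction of ash2-112411 or with the mutant in Cy3 alone, and *CG18596* was not called without extraction 2 of ash2-112411.

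In the other direction the 10 largest differences ran from −2.86 to −1.67. *Cpr65Ec*, a cuticle protein gene on 3L, gave −3.13, −3.55, −2.60 and −3.01 in ash2-I1 and −0.20, −0.14, −0.24 and −0.26 in ash2-112411. It was far below the pool in ash2-I1 and slightly below it on each ash2-112411 array, 7.27-fold apart (difference −2.86 ± 0.17, adjusted p 0.00072). *CG4914* was likewise lower in ash2-I1, with means of −2.53 and −0.78 and no overlap of arrays.

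For most of the other genes in this group it was ash2-112411 that stood away from the pool. *robl*, which encodes a dynein light chain, was at 0.35, −0.08, 0.55 and 0.92 in ash2-I1 and at 2.57, 3.44, 1.99 and 2.17 in ash2-112411. The arrays did not overlap, and the difference was −2.11 ± 0.24 (adjusted p 0.0027). The same held for *CG33096* (−0.32 in ash2-I1 and 1.61 in ash2-112411), *mi* (−0.23 and 1.58) and *Ran-like*, a relative of the *Ran* GTPase gene (−0.01 and 1.69), without overlap of arrays in each. In *CG15353* (−0.17 and 1.63) the highest ash2-I1 array, 0.74, was above the lowest ash2-112411 array, 0.70. In *robl* and these 4 genes both ash2-112411 arrays with the mutant in Cy5 were above both with the mutant in Cy3, as 2.54 and 1.82 against 0.73 and 1.22 in *mi*. All 5 were called with either dye alone.

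The largest contrast among growth regulators was *InR*, the insulin receptor gene on 3R. It was at −0.89, −0.77, −1.25 and −0.95 in ash2-I1 and at 0.16, 0.67, 1.10 and 0.89 in ash2-112411. All ash2-I1 arrays were below the pool and all ash2-112411 arrays above it, and the difference was −1.67 ± 0.12 (3.18-fold, adjusted p 0.0011). *ImpL2*, which encodes a secreted protein that binds insulin-like peptides and limits their action, went the other way. Its values were 0.72, 0.64, 0.39 and 0.17 in ash2-I1 and −0.69, −0.95, −0.69 and −0.81 in ash2-112411, without overlap (difference 1.26 ± 0.15, adjusted p 0.0028). Both genes were called under every alternative tried.

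Of 22 insulin and TOR growth control genes tested, 2 were higher and 2 lower in ash2-I1, which is 18.2% against 14.1% of all genes. The others were *mnd*, an amino acid transporter gene (means −1.01 in ash2-I1 and −0.03 in ash2-112411), and *melt*, a modulator of insulin and TOR signalling (0.79 and 0.00). The difference of *mnd* was not called on the Cy5 arrays alone, and that of *melt* was not called without extraction 1 of ash2-I1 or extraction 2 of ash2-112411. The list median was −0.08 relative to all genes.

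The other genes with means over 1.5-fold from the pool in opposite directions were *Ir75d*, *shu*, *CG12708* and *Gdh*. *Gdh*, glutamate dehydrogenase, was at 0.83, 1.25, 0.62 and 0.37 in ash2-I1 and at −0.28, −0.85, −0.80 and −0.72 in ash2-112411. It was the member of the 5 that was higher in ash2-I1 (difference 1.43 ± 0.19, adjusted p 0.0033). *Ir75d*, of the ionotropic receptor family, had means of −1.64 and 0.67, and *shu*, a co-chaperone gene of the piRNA pathway in the germline, −0.66 and 0.69. *CG12708* had −0.61 in ash2-I1 and 0.62 in ash2-112411. No array of an allele crossed the other allele in any of the 5, although *Ir75d*, *shu* and *CG12708* each lacked a value on 1 array.

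**Figure D2:**
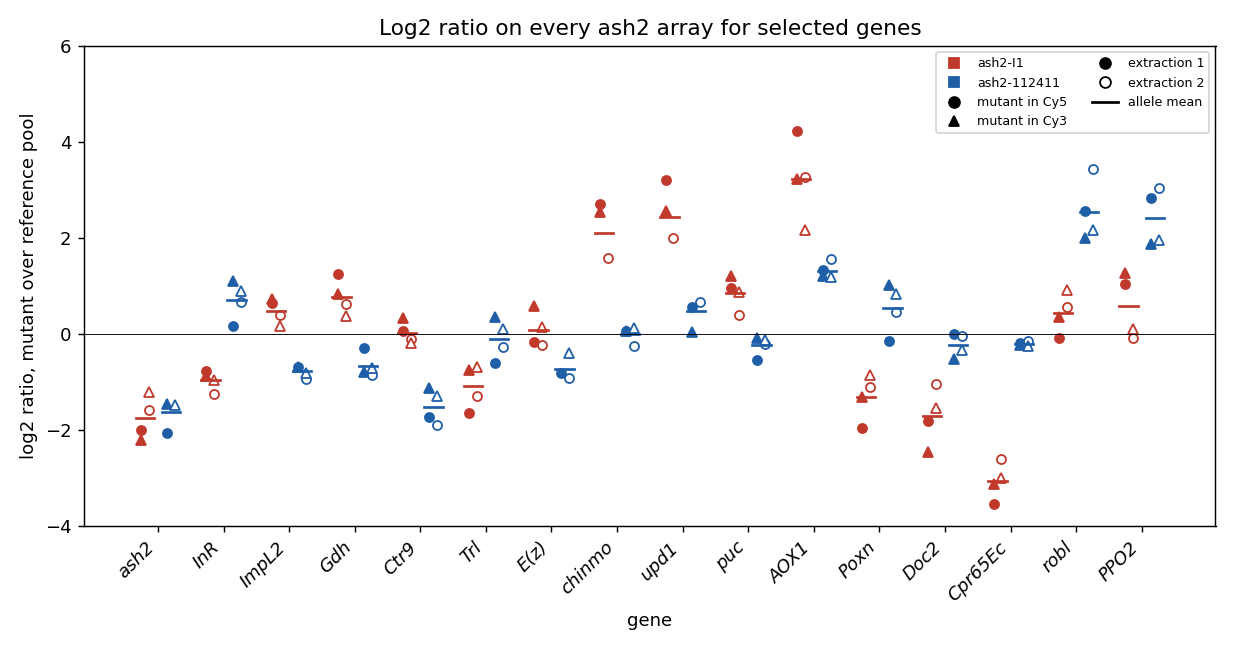
Log2 ratio over the reference pool on each ash2 array for 16 genes, with ash2-I1 in red and ash2-112411 in blue, circles for the mutant in Cy5, triangles for the mutant in Cy3, filled symbols for extraction 1, open symbols for extraction 2 and bars for the allele means. The arrays of the alleles overlap for *ash2* and lie apart for *InR*, *ImpL2*, *Gdh*, *Ctr9*, *Poxn*, *Doc2* and *Cpr65Ec*.

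Of the genes of the JNK and JAK/STAT pathways and other stress genes that differed, all but *Duox* were higher in ash2-I1 than in ash2-112411. The JNK cascade and its target genes respond to wounding, cell death and regeneration in the disc, and JAK/STAT is driven by the secreted Unpaired ligands. Of 26 such genes tested, 11 were higher, 1 was lower and 14 were not called, which is 46.2% called against 14.1% of all genes. On both scales 9 were higher and 1 lower, and the list median was 0.26 above that of all genes (0.18 on the common scale). With extraction 1 of ash2-I1 left out 6 were higher, and with extraction 2 of ash2-112411 left out 7.

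*upd1*, an Unpaired ligand gene on X, gave 2.56, 3.20 and 1.99 on 3 ash2-I1 arrays and 0.56, 0.66 and 0.05 on 3 ash2-112411 arrays. The ligand was thus high in ash2-I1 with no overlap (difference 1.96 ± 0.26, adjusted p 0.0036). *chinmo*, a zinc finger gene that acts downstream of JAK/STAT, gave 2.54, 2.72 and 1.57 in ash2-I1 and 0.06, −0.26, 0.06 and 0.12 in ash2-112411. It was at the level of the pool in ash2-112411 and 4.3-fold higher in ash2-I1 (difference 2.11 ± 0.31, adjusted p 0.0061). *dome*, the receptor gene of the pathway, had means of −0.01 and −0.78 and was called as deposited (difference 0.76 ± 0.19) but not on the common scale, where its adjusted p was 0.093.

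On the JNK side, *puc*, the phosphatase gene that JNK induces and that acts back on it, was at 1.21, 0.95, 0.40 and 0.87 in ash2-I1 and at −0.54, −0.21, −0.08 and −0.13 in ash2-112411. The arrays did not overlap (difference 1.10 ± 0.16, adjusted p 0.0042). The TNF ligand gene *egr* (0.79 in ash2-I1 and −0.09 in ash2-112411), the ETS factor gene *Ets21C* (1.55 and 0.42), the stress gene *Gadd45* (1.06 and −0.09) and the filamin gene *cher* (1.02 and 0.11) were higher in ash2-I1 as well. *Ets21C* and *Gadd45* were measured on 2 of the 4 ash2-I1 arrays. *egr* was not called without extraction 1 of ash2-I1 or without either extraction of ash2-112411. The kinase genes of the cascade were not called, with differences of 0.33 for *bsk*, 0.11 for *hep* and −0.32 for *slpr*, and *Duox*, an oxidase gene, was lower in ash2-I1 (difference −0.89 ± 0.09).

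Of 12 cell death genes tested, 1 was called (8.33%, against 14.1% of all genes), *egr*, which both lists hold.

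Those genes for making ribosomes and starting translation that differed were, apart from *Nph*, higher in ash2-I1, though most members of both lists were not called. Of 33 nucleolus and ribosome assembly genes, 15 were higher and 1 lower in ash2-I1, 48.5% of those tested, and on both scales 10 were higher and 1 lower. The list median was 0.45 above all genes as deposited and 0.43 above on the common scale. In ash2-I1 the median log2 ratio was 0.28 and in ash2-112411 it was −0.22. With centred arrays 5 members were called higher, and without extraction 2 of ash2-112411 there were 7.

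*Ns2*, a GTPase gene of the nucleostemin family, was at 0.71, 0.32, 0.37 and 0.37 in ash2-I1 and at −0.40, −0.59, −0.40 and −0.38 in ash2-112411. No array overlapped (difference 0.88 ± 0.10, adjusted p 0.0027). *l(3)72Dn* (difference 0.91 ± 0.12) and *CG4364* (0.81 ± 0.14) were higher by similar amounts, the second not without extraction 2 of ash2-112411. *Nopp140* (0.69) was called on both scales, and *Nop56* (0.64) and the RNA polymerase I subunit gene *Polr1B* (0.60) as deposited only. *Nph*, a nucleophosmin-type histone chaperone gene, was the exception, at 0.11, 0.08, 0.24 and 0.10 in ash2-I1 and at 1.19, 1.62, 0.73 and 0.76 in ash2-112411 (difference −0.94 ± 0.12).

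Among 30 cytosolic translation factor genes 11 were higher and none lower in ash2-I1 (36.7%), and 6 were higher on both scales. Most of those called encode subunits of eIF3, the factor that brings the initiator complex to the small ribosomal subunit. *eIF3a* was at 0.40, 0.50, 0.42 and 0.34 in ash2-I1 and at −0.69, −0.63, −0.38 and −0.54 in ash2-112411. The alleles were on opposite sides of the pool without overlap (difference 0.98 ± 0.09, adjusted p 0.0023). *eIF3c* (0.95 ± 0.13), *eIF3g1* (0.82 ± 0.13), *eIF3l* (0.82 ± 0.11) and *eIF3m* (0.80) followed, while *eIF4E1*, the cap-binding protein gene, had a difference of −0.10. The arrays of *eIF3l* and *eIF3m* overlapped, and *eIF3l* was not called without the Cy5 array of extraction 1 of ash2-112411. Without extraction 1 of ash2-I1, or without extraction 2 of ash2-112411, 6 translation factor genes were called higher in each case.

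Aminoacyl-tRNA synthetase genes, which load tRNAs with amino acids, had 5 of 26 higher and none lower in ash2-I1 (19.2%), with a list median 0.31 above all genes. On both scales 2 were called, *TyrRS* (0.77 ± 0.09, with overlapping arrays) and the mitochondrial *LeuRS-m* (0.66 ± 0.10). *LeuRS-m* was measured on 2 ash2-I1 arrays and was not called with centred arrays, on Cy5 arrays alone or without extraction 1 of ash2-I1. Without extraction 1 of ash2-I1, or without extraction 2 of ash2-112411, 3 were called, and without the Cy5 array of extraction 1 of ash2-112411 there were 8. Of 30 cytosolic ribosomal protein genes 1 was higher and 3 lower in ash2-I1 (13.3%, against 14.1% of all genes). *RpL39* (0.35 in ash2-I1 and 1.23 in ash2-112411) was called on both scales.

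**Figure D3:**
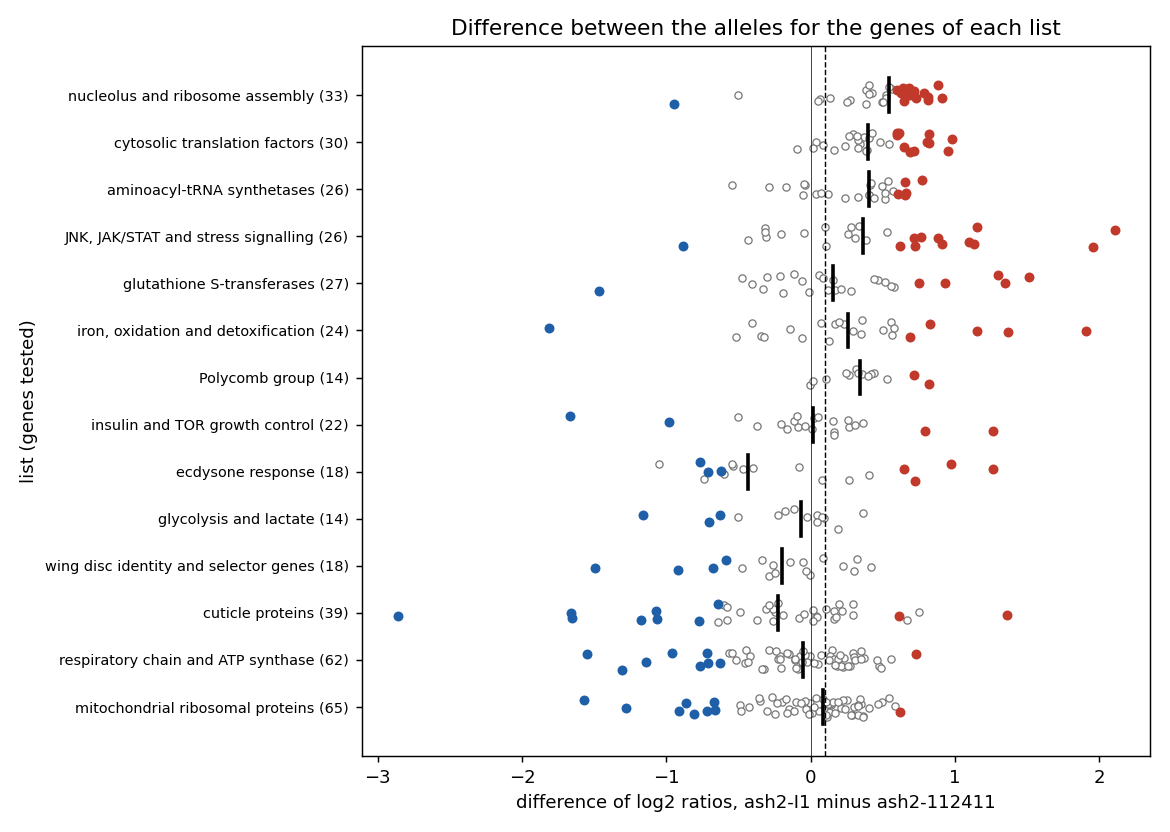
Difference of log2 ratios, ash2-I1 minus ash2-112411, for each gene tested of 14 lists, with genes called higher in ash2-I1 in red, genes called lower in blue, genes not called as open circles, a bar at each list median and a dashed line at the median of all genes tested. The list medians of ribosome assembly (0.54), translation factors (0.40) and synthetases (0.41) lie to the right of the line, and those of cuticle proteins (−0.23) and ecdysone response (−0.43) to the left.

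Of the detoxification and redox genes that differed, most were higher in ash2-I1, though most of those tested were not called. Glutathione S-transferases join glutathione to toxic compounds. Of 27 such genes 5 were higher and 1 lower in ash2-I1, all called on both scales, which is 22.2% against 14.1% of all genes. The list median was only 0.06 above all genes (0.18 on the common scale). The difference was above 0 in 17 genes and below 0 in 10. *GstE6* was high in both alleles (3.10 in ash2-I1 and 2.17 in ash2-112411, with 1 ash2-I1 array among those of ash2-112411), as were *GstE7* (2.69 and 1.17) and *GstE3* (2.00 and 0.66). *GstD5* was at 0.97, 1.24, 0.71 and 0.58 in ash2-I1 and at −0.81, −0.55, 0.17 and −0.48 in ash2-112411. It was therefore above the pool in ash2-I1 only, and the difference was 1.30 ± 0.16 (adjusted p 0.0029). *GstE11* was lower in ash2-I1 (−0.27 against 1.20), with overlapping arrays. The *GstD* and *GstE* genes lie in 2 clusters of similar sequence, so a probe may also bind a neighbour. Without extraction 2 of ash2-I1, 8 of the list were called higher.

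In the list of iron, oxidation and detoxification genes, 5 of 24 were higher and 1 lower in ash2-I1, and on both scales 4 and 1. That is 25.0% called as deposited, against 14.1% of all genes, and the list median was 0.16 above all genes. *Tsf3*, a transferrin gene, was at 1.82, 1.52 and 1.08 on 3 ash2-I1 arrays and at −0.50, −0.03, 0.28 and 0.29 in ash2-112411 (difference 1.36 ± 0.20). *Gclc*, for the enzyme that limits glutathione synthesis, was higher in ash2-I1 by 0.82 ± 0.16. *Trxr1*, thioredoxin reductase, was near the pool in ash2-I1 (0.12) and low in ash2-112411 (−1.03), but 1 of its ash2-112411 arrays (−0.08) lay among the ash2-I1 arrays and it was not called on Cy5 arrays alone. *MtnA*, a metallothionein gene, was the member lower in ash2-I1, with 0.97, 0.12 and 0.68 against 2.24, 2.94, 2.18 and 2.35 (difference −1.82 ± 0.24, adjusted p 0.0034). *Tsf1*, the most raised transferrin gene in both alleles (4.01 and 3.51), was not called as deposited (difference 0.50 ± 0.22) but was on the common scale (1.24, adjusted p 0.003). Leaving out extraction 2 of ash2-112411 left 3 members higher in ash2-I1, and leaving out extraction 2 of ash2-I1 gave 8.

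Other enzymes of this kind were few. Of 17 cytochrome P450 genes 3 were higher and 1 lower in ash2-I1 (23.5%, against 14.1% of all genes), on both scales 2 and 1. *Cyp12b2* (1.39 ± 0.31) and *Cyp310a1* (−1.03 ± 0.21) were at the ends, and the list median was only 0.05 above all genes. *Cyp12b2* was not called on Cy3 arrays alone or without extraction 2 of ash2-112411, and *Cyp310a1* was not called without extraction 1 of ash2-112411. Of 6 UDP-glycosyltransferase genes 3 were called on both scales, *Ugt302K1* (1.30) and *Ugt302C1* (0.84) higher and *Ugt36D1* (−1.42 ± 0.11) lower in ash2-I1. *Ugt302K1* was not called without extraction 2 of ash2-112411.

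Genes that give parts of the wing disc their identity were lower in ash2-I1 where they differed. Of 18 tested 4 were lower and none higher (22.2%), all on both scales, and the list median was −0.30 relative to all genes. The genes called were the 3 neighbouring T-box genes *Doc1*, *Doc2* and *Doc3* and the Iroquois gene *ara*, all on 3L. *Doc2* was at −2.47, −1.81, −1.05 and −1.55 in ash2-I1 and at 0.01, −0.05, −0.53 and −0.34 in ash2-112411. It did not overlap and was 2.82-fold lower in ash2-I1 (difference −1.49 ± 0.24, adjusted p 0.006). *Doc1* (−0.92 ± 0.24), *ara* (−0.68 ± 0.12) and *Doc3* (−0.59 ± 0.17) had overlapping arrays. Without the Cy5 array of extraction 1 of ash2-112411, *Doc2* was the 1 member called, and without extraction 1 of ash2-I1 or either extraction of ash2-112411 there were 2. *vg*, which is needed for the wing to form, had values of −1.10 in ash2-I1 and −0.81 in ash2-112411 and was not called. *ap*, which marks the dorsal compartment, had −0.90 and −1.21 and was not called either.

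*Poxn*, a Pax gene required for chemosensory bristles, had the largest difference among patterning genes. Its values were −1.31, −1.95, −1.11 and −0.86 in ash2-I1 and −0.15, 0.46, 1.03 and 0.84 in ash2-112411, with no overlap (difference −1.85 ± 0.21, adjusted p 0.0027). It was called under every alternative. With *ara* it made 2 of 14 proneural and bristle genes, both lower in ash2-I1 (14.3%, about the 14.1% of all genes).

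Along the anterior/posterior axis 3 of 19 genes were lower and 1 higher in ash2-I1 (21.1%). *inv*, the partner of *engrailed* in the posterior compartment, had means of −1.13 in ash2-I1 and −0.52 in ash2-112411, with overlapping arrays, and was not called on Cy5 arrays alone, without extraction 1 of ash2-I1 or without extraction 2 of ash2-112411. *magu* (−0.65 ± 0.14) and *sbb* (−0.94 ± 0.11) were lower and *dlp*, a glypican that carries Wingless and Hedgehog, was higher in ash2-I1 (0.91 ± 0.14). *sbb* was not called on Cy5 arrays alone, nor *magu* without extraction 1 of ash2-I1 or extraction 2 of ash2-112411. Among 15 genes of the dorsal/ventral axis and Notch signalling, 2 were called, both Notch targets lower in ash2-I1 (13.3%, against 14.1% of all genes). They were *E(spl)malpha-BFM* (−1.01 in ash2-I1 and 0.00 in ash2-112411) and *E(spl)m7-HLH* (−0.78 and −0.13). *E(spl)m7-HLH* was not called on Cy5 arrays alone, in a fit of the 4 ash2 extractions or without extraction 1 of either allele. Of 19 EGF receptor and vein genes 2 were higher and 2 lower, on both scales 1 and 2. *edl*, whose product acts on the ETS factors of the pathway, was low in both alleles and lower in ash2-I1 (−2.34 and −1.05), and *bs*, the intervein gene for serum response factor, was higher in ash2-I1 (0.55 and −0.16). Neither was called without extraction 2 of ash2-112411, and *bs* was not called without extraction 1 of ash2-I1 or with centred arrays either.

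In smaller signalling lists, *ex* of the Hippo pathway was lower in ash2-I1 (−0.35 and 0.56), 1 of 11 tested. *in* of the planar polarity genes was lower as well (−1.53 and −0.86), 1 of 11 tested, though not on Cy5 arrays alone. Of 7 Wingless genes, *dlp* was called. Of the Hox genes *Antp* alone could be tested, with a difference of 0.35 that was not called.

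The chromatin lists were short, with at most 1 member of each called on both scales, where 8.86% of all genes were. Their shares as deposited compare with 14.1% of all genes. Of 14 Polycomb group genes 2 were higher and none lower in ash2-I1 (14.3%), and the list median was 0.24 above all genes. *E(z)*, the methyltransferase of lysine 27 of histone H3, was at 0.58, −0.17, −0.23 and 0.14 in ash2-I1 and at −0.81, −0.92 and −0.40 in ash2-112411. The arrays did not overlap (difference 0.82 ± 0.13, adjusted p 0.0053), though extraction 1 of ash2-112411 had its Cy5 array alone. *Scm* was higher by 0.71 as deposited.

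Of 18 trithorax group and Brahma remodelling genes 1 was higher and 1 lower in ash2-I1 (11.1%). *Trl*, which encodes the GAGA factor, was at −0.74, −1.64, −1.29 and −0.69 in ash2-I1 and at −0.60, −0.28, 0.34 and 0.10 in ash2-112411. It was lower in ash2-I1 without overlap of arrays (difference −0.98 ± 0.11, adjusted p 0.0027). A second *Trl* probe, measured on 6 arrays, gave a difference of −0.41 with an adjusted p of 0.12. *Mi-2*, a nucleosome remodeller gene, was higher by 0.71 as deposited. Of 13 genes of the Set1, Trr and Trx complexes, which hold ASH2, *Wdr82* was called as deposited (0.59) and none on both scales. *trx* had means of −0.42 and −0.54. *His4r*, a histone H4 gene, was lower in ash2-I1 (−0.88 and 0.42), but not without extraction 2 of ash2-112411.

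Cuticle protein genes differed mainly towards lower values in ash2-I1. Of 39 tested 8 were lower and 2 higher (25.6%), on both scales 7 and 2, and the list median was −0.33 relative to all genes (−0.20 on the common scale). Beside *Cpr65Ec*, *Cpr64Aa* had means of −0.51 in ash2-I1 and 1.14 in ash2-112411, *Cpr49Ah* −0.35 and 1.32, and *Cpr49Ag* 0.02 and 1.19. In these 3 ash2-112411 was above the pool. *Cpr50Cb* was higher in ash2-I1 (1.68 and 0.32). Without extraction 2 of ash2-I1, 13 were called lower.

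Of 20 chitin and cuticle assembly genes 3 were lower and 1 higher in ash2-I1 (20.0%). *obst-A*, a chitin-binding protein gene, was at −2.0, −1.93, −1.37 and −1.39 in ash2-I1 and at −0.47, −0.27, −0.45 and −0.18 in ash2-112411, without overlap (difference −1.33 ± 0.19, adjusted p 0.0042). *neo* (−1.12 ± 0.13) and *Gnpnat*, an enzyme gene on the way to chitin (−0.79 ± 0.13), were lower too, and *Idgf6*, of the chitinase-like growth factor family, was higher (1.11 ± 0.18).

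Of 18 ecdysone response genes 4 were higher and 3 lower in ash2-I1 (38.9%), on both scales 3 and 2, *ImpL2* among the higher. With centred arrays 2 were higher and 5 lower. The list median was −0.53 relative to all genes (−0.43 on the common scale), with 11 differences below 0 and 7 above. Ecdysone is the steroid that times moulting and metamorphosis, and cuticle genes are among those it controls. *br*, an early response gene, was low in both alleles and lower in ash2-I1 (−1.44 and −0.82), and *Blimp-1* was lower too (−0.49 and 0.28, on 2 arrays of each allele). *crc*, the ATF4 gene, was near the pool in ash2-I1 (0.04) and low in ash2-112411 (−0.93), and *ftz-f1* was higher in ash2-I1 (0.63 and −0.10). *ftz-f1* was not called with centred arrays, on Cy3 arrays alone, without extraction 1 of ash2-I1 or without extraction 2 of ash2-112411. Larvae of both alleles were staged alike, and the time of each extraction within that stage is not given.

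Mitochondrial genes were called about as often as all genes. Of 62 respiratory chain and ATP synthase genes 8 were lower and 1 higher (14.5%, against 14.1% of all genes), and on both scales 4 were lower, where 4.16% of all genes were. *ND-B14.5A*, a complex I subunit gene, was at −0.12, 0.41, 0.88 and −0.05 in ash2-I1 and at 2.27, 2.91, 1.02 and 1.13 in ash2-112411 (difference −1.55 ± 0.16, adjusted p 0.0025). *ND-B14.5B* (−1.30), *ND-MLRQ* (−1.14) and *UQCR-6.4* (−0.96) were lower as well, the last with overlapping arrays and without a call when either ash2-I1 extraction, extraction 2 of ash2-112411 or the Cy5 array of its extraction 1 was left out. For *UQCR-6.4*, extraction 2 of ash2-112411 had its Cy5 array alone. *ATPsynbeta* was higher in ash2-I1 as deposited (0.73). Without the Cy5 array of extraction 1 of ash2-112411, 4 genes of this list were lower.

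Of 65 mitochondrial ribosomal protein genes 8 were lower and 1 higher in ash2-I1 (13.8%), and on both scales 2 were lower. The difference was above 0 in 37 of the 65 and below 0 in 28. *mRpS21* was at 1.03, 0.47, 0.92 and 1.06 in ash2-I1 and at 2.49, 3.33, 1.93 and 2.01 in ash2-112411, without overlap (difference −1.57 ± 0.18, adjusted p 0.0027). It and *mRpL21* (0.36 and 1.65) were the members called on both scales. The list medians were 0.32 in ash2-I1 and 0.25 in ash2-112411. Without extraction 2 of ash2-112411, 5 were lower.

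The direction of the difference varied with the length of the gene, without a steady trend across all classes. The span from the start to the end of the gene was known for 6207 of the genes tested (97.9%). Of 744 genes with a span under 1000 bp, 8.06% were lower and 2.15% higher in ash2-I1 on both scales. Of 1665 genes of 2000 to 4000 bp, 2.64% were lower and 6.19% higher. Of 1087 genes of 8000 bp or more, 5.15% were lower and 5.61% higher, with a median difference of 0.095. The median difference was −0.01 in the shortest class and 0.16 in the class of 2000 to 4000 bp, and with the mutant in Cy5 alone these were −0.13 and 0.15, with Cy3 alone −0.02 and 0.23. The median log2 ratio went from 0.15 to −0.17 between these classes in ash2-112411 and from 0.12 to −0.01 in ash2-I1.

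The lists differed in this property. The median span was 910 bp for mitochondrial ribosomal protein genes, 1106 bp for respiratory chain genes and 908 bp for cuticle protein genes, against 2516 bp for all genes tested. It was 2153 bp for ribosome assembly genes and 2465 bp for translation factor genes, close to that of all genes, and 9433 bp for the JNK, JAK/STAT and stress genes. The part of gene span in the results of these lists was not tested.

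**Figure D4:**
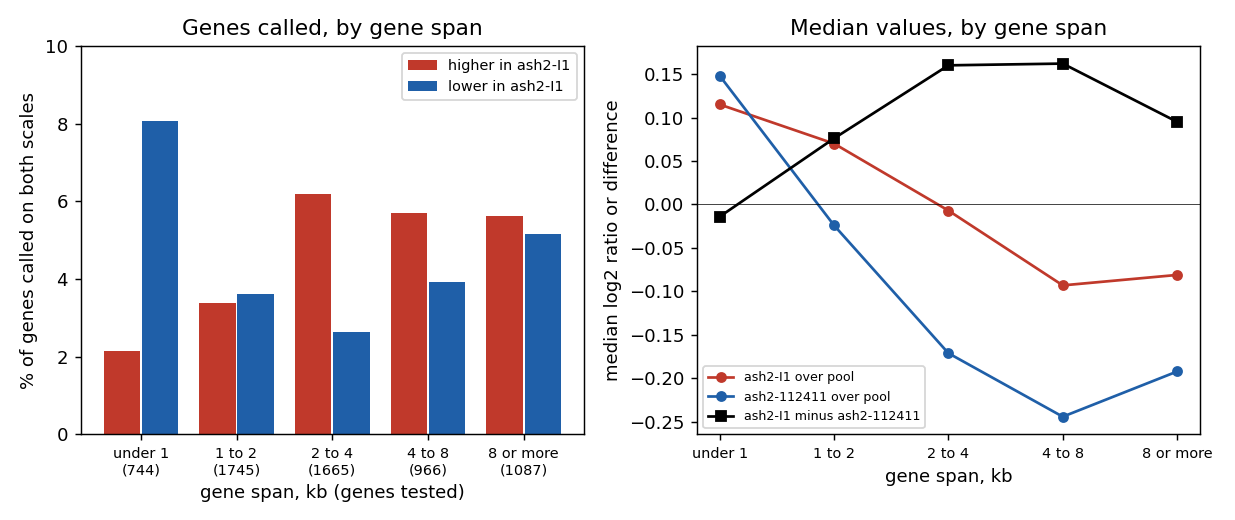
Left, percent of the genes tested in each class of gene span that were called on both scales as higher (red) or lower (blue) in ash2-I1, and right, the median log2 ratio of each allele over the pool and the median difference in the same classes. Of genes under 1000 bp 8.06% were lower in ash2-I1 and 2.15% higher, and the median of ash2-112411 was 0.15 in that class and −0.24 in the class of 4000 to 8000 bp.

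Central metabolism differed in a few enzymes. Of 14 glycolysis genes 3 were lower and none higher in ash2-I1 (21.4%). *fbp*, fructose-1,6-bisphosphatase, which works in the opposite sense, was at −1.90, −2.30, −1.75 and −1.51 in ash2-I1 and at −1.14, −0.76, −0.23 and −0.69 in ash2-112411 (difference −1.16 ± 0.16, adjusted p 0.0037). *Tpi* (−0.70 ± 0.16) and *Pgk* (−0.63 ± 0.18) were lower too, both not without extraction 1 of ash2-I1 or either extraction of ash2-112411. Of 21 genes of the TCA cycle and of lipid metabolism 3 were higher in ash2-I1 and none lower (14.3%, against 14.1% of all genes). These were *Idh3g* (0.90 ± 0.14), the fatty acid synthase gene *FASN1* (0.80 ± 0.22) and *Desat1* (0.78 ± 0.12), of which a second probe gave 0.29 with an adjusted p of 0.32. *FASN1* was not called with centred arrays, in a fit of the 4 ash2 extractions, without extraction 1 of ash2-I1 or without either ash2-112411 extraction, and *Desat1* was not called on Cy5 arrays alone.

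Of 47 cell cycle and replication genes 5 were higher and 2 lower in ash2-I1 (14.9%, about the 14.1% of all genes), on both scales 1 and 2. *RnrL*, ribonucleotide reductase, was at 0.29, 0.71, 0.55 and 0.02 in ash2-I1 and at −0.49, −1.06, −0.69 and −0.96 in ash2-112411, without overlap (difference 1.19 ± 0.16, adjusted p 0.0033). The condensin gene *glu* (−0.88 ± 0.10) and *Incenp*, of the chromosomal passenger complex (−0.82 ± 0.17), were lower in ash2-I1. *Incenp* had overlapping arrays and was not called on Cy5 arrays alone or without extraction 1 of ash2-112411. The helicase genes *dpa* (0.69) and *Mcm6* (0.68) were higher as deposited only, being lower than the pool in both alleles.

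Among 20 small heat shock and chaperone genes, *Hsp27* was low in both alleles and lowest in ash2-I1, with −2.48, −3.14, −2.19 and −2.21 against −1.31, −1.36, −0.53 and −0.85 (difference −1.49 ± 0.21, adjusted p 0.0039). *Hsp26* was lower by a smaller amount (−0.71 ± 0.19) and was not called without extraction 2 of ash2-I1, without either ash2-112411 extraction, on Cy5 arrays alone or in a fit of the 4 ash2 extractions, and *CG11267* was higher in ash2-I1 (0.86 ± 0.19), but not on Cy3 arrays alone, without extraction 1 of ash2-I1 or without extraction 2 of ash2-112411. Of 17 vacuolar proton pump genes *Vha36-1* (−1.18 ± 0.15) and *Vha16-1* (−0.85 ± 0.10) were lower in ash2-I1 (11.8%), the second not on Cy5 arrays alone. *nrv1* (−0.59), *trn* (−0.59) and *crok* (−0.72) were the 3 of 28 adhesion and septate junction genes called (10.7%), all lower. On Cy5 arrays alone and without extraction 2 of ash2-112411 neither *nrv1* nor *trn* was called, nor was *nrv1* without extraction 1 or *trn* without extraction 2 of ash2-I1, and *crok* was not called on Cy3 arrays alone. Of 28 proteasome genes 1 was called as deposited and none on both scales, and of 26 Mediator genes *MED24* (−0.73) was called on both, but not on Cy3 arrays alone or without the Cy5 array of extraction 1 of ash2-112411.

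Secreted proteins gave some of the largest values. *Obp99a*, of the odorant-binding protein family, was at −3.28, −2.52 and −2.05 on 3 ash2-I1 arrays and at −0.46, −0.09, 0.51 and 0.18 in ash2-112411. It was 7.05-fold lower in ash2-I1 (difference −2.82 ± 0.32, adjusted p 0.0027), and *Obp56a* was lower by a difference of −1.14 ± 0.14. Both were the members called of 16 tested (12.5%, against 14.1% of all genes). Of 14 serpin and serine protease genes 3 were higher and 2 lower (35.7%), on both scales 3 and 1, with *Spn47C* at 1.24 ± 0.12 and *Spn42Dd* at −1.48 ± 0.12.

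The wing disc label was compared with markers. Of 6 wing disc markers, 4 (*vg*, *nub*, *ap* and *Doc1*) passed the spot filters in both alleles. The values are ratios, so no level of a marker can be given, and a marker of another tissue has a value only where the discs or the pool held enough of it. Of 17 hemocyte markers 7 were tested and 1 differed, *PPO2*, the prophenoloxidase of crystal cells, with 1.27, 1.04, −0.09 and 0.10 in ash2-I1 and 2.83, 3.04, 1.87 and 1.95 in ash2-112411 (difference −1.84 ± 0.37, adjusted p 0.011). The other 6 hemocyte markers had differences from −0.28 to 0.16, and *PPO2* was not called without extraction 2 of ash2-112411. Of 13 differentiated muscle genes 2 were higher and 1 lower, on both scales 1 and 1, with *Mlc1* at 1.82 in ash2-I1 and 0.52 in ash2-112411 and *Argk1* at −1.77 and −0.53. *Argk1* was not called without extraction 2 of ash2-112411. Of 6 nervous system markers *loco* was higher (0.81), while *elav* (−1.47) and *para* (−0.97) were lower with overlapping arrays. In both, the overlap was between arrays of different dye, and within each dye the alleles lay apart. For *elav*, extraction 2 of ash2-I1 had its Cy5 array alone, so its difference mixes dyes. Of 7 tracheal markers *btl* (−0.84) was lower on both scales, and *vvl* (−0.68) was lower and *esg* (0.63) higher as deposited only. Of 3 markers of adult muscle precursors *hbs* was lower (−0.64), but not without extraction 1 of ash2-I1. None of 4 fat body, 3 salivary gland, 5 gut and 4 leg disc markers was called, although *Lsp2* of the fat body had a difference of −2.20 ± 1.22. The part of other cell types in the results above was not tested.

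Genes that differed were spread over the chromosomes. On the third chromosome, which carries *ash2*, 407 of 2748 genes differed (14.8%), against 474 of 3430 on X and the second (13.8%). By arm the share was 11.3% on X, 14.7% on 2L, 15.1% on 2R, 15.5% on 3L and 14.3% on 3R, and 2 of 28 genes differed on chromosome 4. On both scales the third chromosome had 9.46% and X with the second 8.6%.

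The call also held for many genes across dyes and scales at once. Of 526 genes measured on all 8 arrays and called, 225 were called with the same sign on the common scale, with centred arrays, with either dye alone and in a fit of the 4 ash2 extractions only, 113 of them higher and 112 lower in ash2-I1. *AOX1*, *Nt5b*, *Ctr9*, *Gdh*, *ImpL2*, *puc*, *eIF3a* and *Ns2* are among the first, and *Cpr65Ec*, *robl*, *Poxn*, *InR*, *Doc2*, *Hsp27* and *mRpS21* among the second.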

How the data were processed

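Total RNA of wing discs was amplified and hybridized to 2-colour arrays of 70-base probes, mutant against pool. The authors scanned the slides with an Axon 4000B, removed spots under their quality thresholds and corrected the background with normexp in limma. They normalized within arrays with OLIN and scaled the 4 arrays of an allele by its mad method. The deposited arrays of an allele still differ in median absolute deviation, at 0.19 to 0.26 in ash2-I1 and 0.27 to 0.31 in ash2-112411. The deposited table gives, per spot, the log2 of Cy5 over Cy3, with no intensities, so signal over background could not be examined, and the number of arrays limits the precision. The limma version of the authors is not given in the sources used here.

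Arrays with the mutant in Cy3 had their sign turned, dye-swapped arrays were averaged per extraction, and the 6 extractions of 3 alleles were fitted in limma 3.58.1 (R 4.3.3) with the contrast ash2-I1 minus ash2-112411. In this contrast the pool cancels. Benjamini-Hochberg adjustment ran over all 6595 probes measured in both extractions of both alleles. Of 16416 spots 13164 had 1 gene symbol, and 101 with several and 3151 without annotation were not named. A gene with several probes was counted by the probe measured on most ash2 arrays, which applied to 162 genes. The extractions are labelled as separate, and nothing says more of the cultures, so p-values measure the spread between these extractions.

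For the common scale each array was divided by its own median absolute deviation and multiplied by the mean of the 12. The other alternatives were centred arrays, either dye alone, all 8 arrays measured, the ash2 extractions alone, the extraction as a random block, its number as a block, and each extraction left out. On simulated data of 6595 probes, 200 of them changed, 38% of genes changed by 1.5-fold were recovered at an adjusted p under 0.05, and 92% at 2.0-fold. The simulation had no dye effect, and recovery did not require the fold threshold. In the real data 33.3% of genes had an adjusted p under 0.05, so these rates do not carry over to this comparison. Members and lists were chosen with earlier results of these data known. The genes named are *ash2*, the 10 largest differences each way, genes in opposite directions, and in each list up to 4 members with the largest differences, all called on both scales. Genes named beyond these, among them *puc*, *cher*, *GstE6*, *Tsf1*, *br* and members not called, were chosen after their values were seen. Gene names and spans are those of RefSeq.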

Additional observations from a re-analysis of the deposited data

Results flagged for a closer look

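In 5 genes called on both scales the alleles lay over 1.5-fold from the pool in opposite directions, and the difference itself was tested (limma, adjusted over all genes). *Ir75d* had −1.64 in ash2-I1 and 0.67 in ash2-112411, a difference of −2.31 (adjusted p 0.00072). *InR* had −0.97 and 0.70, a difference of −1.67 (adjusted p 0.0011). *shu* had −0.66 and 0.69, a difference of −1.34 (adjusted p 0.0016). *CG12708* had −0.61 and 0.62, a difference of −1.22 (adjusted p 0.0023). *Gdh* had 0.77 and −0.66, a difference of 1.43 (adjusted p 0.0033). All 5 were called under every alternative that could be fitted for them.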

How the results depend on the processing

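Against 894 genes as deposited, 532 differed with all 8 arrays required, 2111 at an adjusted p under 0.05 alone and 213 past 2.0-fold, and leaving out 1 extraction gave 538 (ash2-112411 extraction 2) to 1170 (ash2-I1 extraction 2). Higher in ash2-I1 were 500 as deposited, 322 on the common scale, 239 centred, 303 with all 8 arrays and 278 to 708 with an extraction left out, and lower were 394, with 624 centred, 229 with all 8 arrays and 260 to 462 with an extraction left out. The calls shared with the 894 were 562 on the common scale, 633 centred and 498 without extraction 2 of ash2-112411. Of the list counts, JNK, JAK/STAT and stress genes went from 11 higher to 6 with all 8 arrays, 5 on Cy3 arrays and 6 to 12 with an extraction left out. Ribosome assembly genes went from 15 to 5 centred and 7 to 17 with an extraction left out, and translation factors from 11 to 6 on the common scale, 5 centred and 6 to 13. Synthetases went from 5 to 2 on the common scale, 1 centred, 3 with all 8 arrays and 3 to 7, and to 8 without the Cy5 array of extraction 1 of ash2-112411, an alternative chosen after seeing the data. Iron and oxidation genes went from 5 to 3 with all 8 arrays, 3 on Cy5 arrays and 3 to 8, and glutathione S-transferases from 5 to 3 with all 8 arrays and 5 to 8. Cuticle genes lower in ash2-I1 went from 8 to 3 with all 8 arrays, 4 on Cy3 arrays and 6 to 13. Respiratory genes went from 8 to 4 on the common scale, 13 centred, 15 on Cy5 arrays, 7 to 12, and 4 without that Cy5 array. Mitochondrial ribosomal genes went from 8 to 2 on the common scale, 4 on Cy3 arrays and 5 to 10, and wing identity genes from 4 to 2 to 5, and to 1 without that Cy5 array. The share of genes that differed on the common scale was 10.3% on the third chromosome and 9.33% on X and the second. With all 8 arrays required 3275 of the 6343 genes were tested, on Cy5 arrays alone 4732 and on Cy3 arrays alone 4227. The counts under these alternatives are therefore of fewer genes. Of the 3275 genes 16.1% were called as deposited, against 14.1% of all genes. The cause of these moves was not tested.

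The extraction numbers did not pair the samples: deviations of same-numbered extractions correlated at 0.09, −0.05 and −0.13. With the number as a replicate block 902 genes differed, 505 higher and 397 lower, and 891 were among the 894. Of 120 named genes 76 kept their call under every alternative. The difference of *ash2*, not called, ran from −0.48 to 0.22 with an extraction left out, and changed sign to 0.22 without extraction 1 of ash2-I1 and to 0.015 without extraction 2 of ash2-112411.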
